A study of Homo sapiens with 6 samples.

Results

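SHPRH gave 4 of the 9857 circular RNAs (circRNAs) listed for BEAS-2B, a human cell line without tumour origin that was derived from the lining of a bronchus. They were taken as every circRNA whose source gene is SHPRH in the authors' annotation, and joined by identifier to the table of reads. In a circRNA an exon's end is spliced back to the start of the same or an earlier exon, which closes the RNA to a ring, and only reads over this back-splice junction are counted for it. The study set 3 libraries of cells grown with 2.0 µM cadmium against 3 libraries of cells grown at 0.0 µM, both over 20 weeks. All 6 libraries came from total RNA from which ribosomal RNA had been removed and linear RNA digested with RNase R. Separate cultures are not stated for the libraries, so that p-values reflect a spread between libraries that could be technical.

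SHPRH encodes a large protein that joins a SNF2-type helicase to a RING ubiquitin ligase and is a human relative of yeast Rad5. With its paralogue HLTF it extends ubiquitin chains on PCNA, the sliding clamp of DNA replication, which lets a stalled fork copy past damaged bases by switching template. Its best known circle, hsa_circ_0001649 or circ-SHPRH, has been studied in several tumours and has been described in glioma as the source of a short protein. Published cadmium work on BEAS-2B cells followed up a circle named circ-SHPRH, together with miR-224-5p and the RNA-binding protein gene QKI. The sources used here do not give the identifier of the circle in that work. That cadmium work may have arisen from these libraries, whose values then are no independent evidence for it.

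The circles come from the middle and the last part of the gene, which lies on the minus strand of chromosome 6 (145864245 to 145964423, GRCh38). Exon numbers are those of the GENCODE 29 transcript SHPRH-203, which has 30 exons. The circle hsa_circ_0001649 (145888020 to 145894977) holds exons 26 to 29, which are 93, 87, 179 and 81 bases long and add up to 440 bases. The circle hsa_circ_0078139 (145893215 to 145894977) is nested in it, holds exons 26 to 28 and measures 359 bases. The circle novel_circ_0033004 (145864388 to 145894977) also opens at exon 26. It closes 104 bases into a distal exon that the transcript SHPRH-204 holds and SHPRH-203 lacks. Its deposited structure lists exons 26, 27 and 29 and this distal stretch, 365 bases in all, and leaves out exon 28. Its end at 145864388 lies on no exon bound, whereas 98.0% of the starts of exonic circRNAs do. An antisense gene, AL356599.1 (145799409 to 145886585, plus strand), overlaps the distal exon. The fourth circle, hsa_circ_0078143 (145919348 to 145933178), shares no exon with the other 3. Its ends are those of exons 14 and 22, and although its deposited structure names only exons 14, 15 and 22 (355 bases), its deposited length of 1162 bases is that of exons 14 to 22 in full. Junction reads fix the ends of a circle and not the exons between them.

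**Figure D1:**
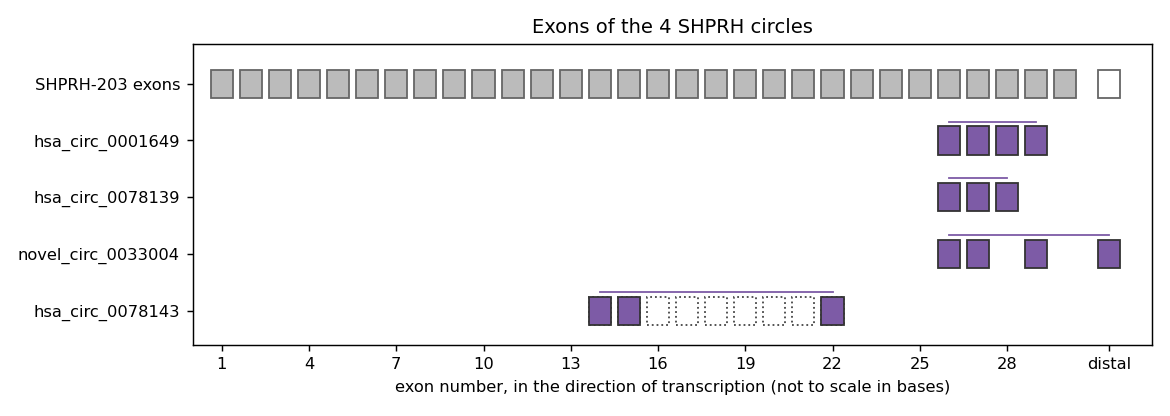
Exons of the 4 SHPRH circles (rows) by exon number of transcript SHPRH-203 (horizontal axis, not to scale in bases), with the distal exon of SHPRH-204 as an open box in the top row. Filled boxes are exons in the deposited structure, dotted boxes are exons 16 to 21 that the deposited length of hsa_circ_0078143 implies, and 3 of the 4 circles open at exon 26.

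The back-splice junctions are shown because they are what the reads identify, and because 3 of the 4 differ only before the joint. Each line gives the last 25 bases before the joint in lower case and the first 25 bases after it in capitals, read 5′ to 3′ on the minus strand from GENCODE 29 transcripts.
hsa_circ_0001649: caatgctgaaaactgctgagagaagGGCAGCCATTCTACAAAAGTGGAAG
hsa_circ_0078139: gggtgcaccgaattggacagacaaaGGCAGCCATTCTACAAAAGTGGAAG
novel_circ_0033004: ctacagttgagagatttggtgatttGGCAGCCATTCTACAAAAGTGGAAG
hsa_circ_0078143: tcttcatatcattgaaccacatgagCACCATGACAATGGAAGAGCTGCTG
The capitals of the 3 upper lines are the same because all open at the first base of exon 26. An opening exon used by 3 or more circles was found for 5.4% of the 7136 opening exons of exonic circRNAs with 1 host, and 38.5% of such circRNAs shared their opening exon with another. SHPRH is among 790 of 3742 host genes with 4 or more circles, where the median is 2.

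Exon 26 also holds the start codon of the longest open reading frame of hsa_circ_0001649. The frame opens at base 43 of the circle, in the frame of SHPRH-203, runs through the junction for 146 codons and closes in a stop codon whose last base is the first base of the start codon. This overlap of stop and start is in capitals in the 30 bases around it (chr6:145894919-145894948, minus strand).
start region of hsa_circ_0001649: ggtcagaactcTGATGaaaatacagcttag
The same 30 bases stand in all 3 circles that open at exon 26. In hsa_circ_0078139 the same start codon opens 119 codons and ends at the same stop. The lengths of 440 and 359 leave the same remainder when divided by 3, and no stop comes earlier in the frame. In novel_circ_0033004, built from its listed exons without exon 28, the longest frame is another and has 64 codons. In hsa_circ_0078143, built as exons 14 to 22 in full, it has 406 codons, which is longer than a turn of the circle. Both depend on these inner exons. These frames are read from the sequence, and no reads bear on their translation.

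The miRNA named with circ-SHPRH in published cadmium work has this mature sequence in RefSeq (chromosome X, GRCh38.p14), with the seed, bases 2 to 8, in capitals.
hsa-miR-224-5p: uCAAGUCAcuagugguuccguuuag
The complement of the seed, TGACTTG, was searched in the sense strand of each closed circle. It was found 0 times in the 4 circles, against 2.56% of 1249 circRNAs within 10% of the length of hsa_circ_0001649 and 8.95% of 190 within 10% of that of hsa_circ_0078143. For the lengths of hsa_circ_0078139 and novel_circ_0033004 the shares were 2.46% and 2.52%. The shorter GACTTG, which is part of it, stands once in hsa_circ_0078143 and is held by 28.9% of 190 circRNAs of its length. For this circle the search and the length used exons 14 to 22 in full, 1162 bases. The site, at base 291, lies in exon 16, which the deposited structure does not name. The search says only that TGACTTG is not in the 4 circles as built.

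All SHPRH circles together had 177 junction reads in the 6 libraries, and hsa_circ_0001649 took 114 of them. In CPM (junction reads scaled to the TMM-adjusted total of the library, the usual unit of relative abundance), hsa_circ_0001649 averaged 115 over the 6 libraries and ranked 1810 of 9857, above 81.6% of circRNAs. The other 3 lay below the median circRNA, which stood at 41.4 CPM. They averaged 23.6 CPM for hsa_circ_0078139, 21.7 for hsa_circ_0078143 and 20.7 for novel_circ_0033004, and their ranges over libraries overlapped with each other in both groups. Library totals ran from 133185 to 225769 junction reads, and control replicates 1 and 3 stood apart in the junction reads' share of all reads of a locus. In bulk libraries fewer cells with a circle and less of it in each cell cannot be told apart. At such depth a library gave 0 to 9 reads to each of these 3 circles, so their folds are imprecise.

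The main SHPRH circle did not differ detectably with cadmium. It had 9, 17 and 26 junction reads in cadmium replicates 1 to 3, against 35, 10 and 17 in control replicates 1 to 3. In CPM these were 66.6, 123 and 166 with cadmium, against 157, 72.5 and 102 in controls. The 2 groups overlapped over most of their range, and the highest library of each group had over 2 times the CPM of its lowest. Means were 118 ± 49.8 CPM with cadmium, against 111 ± 43.0 CPM in control cells (SD, n = 3 each). The log2 fold change, cadmium over control, was 0.07 with SE 0.39 (edgeR adjusted p = 0.974 over 6182 circRNAs). Its 95% interval of -0.77 to 0.91 corresponds to 0.586-fold to 1.88-fold, so a change within these bounds is not excluded. On simulated data this fit recovered 30% of 2-fold and 96% of 4-fold changes. The changed circRNAs were drawn from the more abundant ones, and all were given the same fixed spread between libraries. These percentages therefore need not hold for this circle. Of the 4 circles this was the only 1 to pass the filter on low counts, and 0 passed the test, which called 0.0809% of all 6182 circRNAs (5 that fell and 0 that rose). The sign of its fold change depended on single libraries. Without cadmium replicate 3 it was -0.28, without control replicate 2 -0.17 and without control replicate 3 -0.02, while without control replicate 1 it was 0.43 and without control replicates 1 and 3 it was 0.71.

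**Figure D2:**
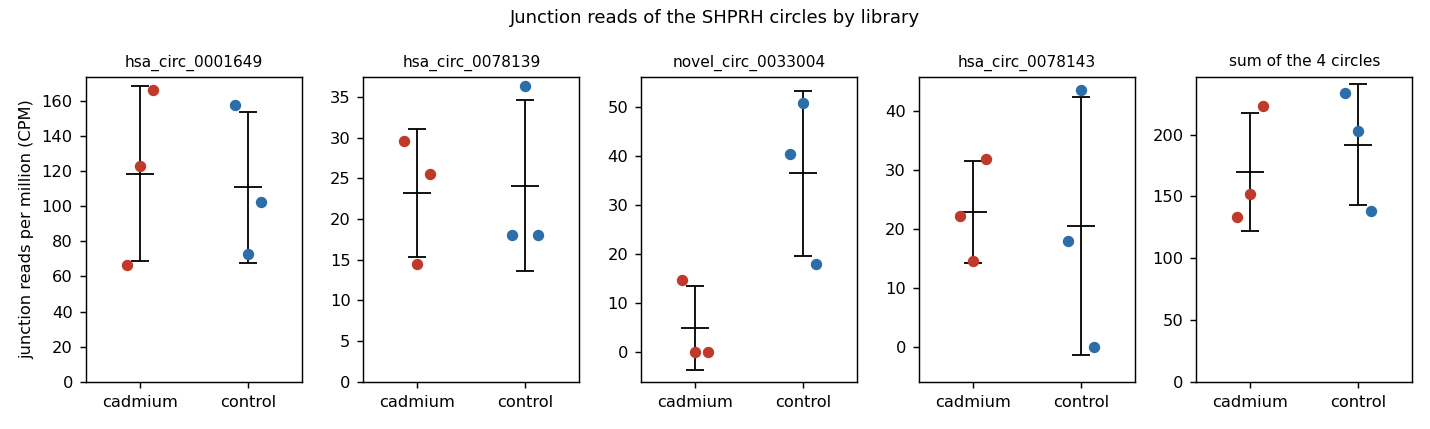
Junction reads in CPM (vertical axes, a different scale in each panel) of the 4 SHPRH circles and of their sum, with cadmium (red) and in controls (blue). Points are libraries, and bars give mean and SD of 3 libraries. Groups overlap in every panel except that of novel_circ_0033004.

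The circle that closes in the distal exon was the only 1 of the 4 whose groups did not overlap. Its reads numbered 2, 0 and 0 in cadmium replicates 1 to 3, against 9, 7 and 3 in control replicates 1 to 3. That is 4.93 ± 8.54 CPM with cadmium, against 36.4 ± 16.7 CPM in control cells (SD, n = 3 each, two-sided exact permutation p = 0.1, the smallest that 3 against 3 can give). Over the summed reads, 2 with cadmium and 19 in controls, the ratio of cadmium to control was 0.130, with an exact 95% interval of 0.0147 to 0.538 that covers counting error only. A count of 0 allows up to 3 reads. That is 22.1 CPM in cadmium replicate 2 and 18.7 CPM in cadmium replicate 3, as shares of the library total. Both are close to the 18.0 CPM of control replicate 3. The smallest count above 0 in the data is 2, so a 0 may also stand for a single read. These bounds and the interval above would then be too tight. Without the filter on low counts, which this circle does not pass, edgeR gave a log2 fold change of -2.78 with SE 1.18, an unadjusted p of 0.0271 and an adjusted p of 0.373 over 9857 circRNAs. That fit called 0.0507% of them, and 5.8% were lower with cadmium at an unadjusted p under 0.05. Groups did not overlap, with cadmium lower, for 9.34% of all 9857 circRNAs. Every circRNA in the table has reads in each library of a group, as this circle has in controls, and such a filter favours separated groups. In the authors' deposited table it is marked as significant, with a p of 0.0361, a log2 fold change of -0.91 and no adjusted p. Its group means in the authors' deposited table are 0.755 with cadmium and 5.62 in controls, a wider ratio than the fold change printed beside them, and how that fold was computed is not stated. That table marks 506 of 9857 circRNAs, each with an unadjusted p under 0.05.

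The nested circle and the upstream circle showed no separation. For hsa_circ_0078139 there were 4, 2 and 4 junction reads with cadmium, against 4, 5 and 3 in controls. In CPM these averaged 23.2 ± 7.81 with cadmium, against 24.1 ± 10.5 in control cells (SD, n = 3 each). Without the filter on low counts its log2 fold change was -0.04, with a 95% interval of -1.91 to 1.84 (edgeR adjusted p = 0.994). For hsa_circ_0078143 there were 3, 2 and 5 reads with cadmium, against 4, 6 and 0 in controls. The 0, if it stands for no read, allows up to 18.1 CPM. The groups of both circles overlapped, and the log2 fold change of hsa_circ_0078143 was 0.21, with an interval of -1.88 to 2.30 (edgeR adjusted p = 0.970). Its sign turned to -0.36 without control replicate 3, the library with the 0, and to -0.12 without cadmium replicate 3. It was 1.11 without control replicate 2, 0.47 with the replicate number as a block and 1.28 by limma on log2(TPM + 1). In the authors' deposited table the log2 fold changes are 0.05 for hsa_circ_0001649, -0.02 for hsa_circ_0078139 and 0.07 for hsa_circ_0078143, and none of these is marked.

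Summed over the 4 circles, SHPRH had 18, 21 and 35 junction reads with cadmium, against 52, 28 and 23 in controls. The sum averaged 169.5 ± 47.5 CPM with cadmium, against 192 ± 48.7 CPM in control cells (SD, n = 3 each), and the groups overlapped. The log2 fold change was -0.18, with SE 0.29 and a 95% interval of -0.80 to 0.44 (edgeR adjusted p = 0.821 over 3008 host genes, of which 0.233% were called). By level SHPRH ranked 1254 of 3742 host genes.

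Of the shares of the 4 circles in the SHPRH reads, that of novel_circ_0033004 alone had groups that did not overlap. This share rests on the same reads as the level of that circle, and the same filter favours separated groups here. How often such shares separate in other hosts was not counted. The share of hsa_circ_0001649 was 50%, 81.0% and 74.3% in cadmium replicates 1 to 3, with exact Clopper-Pearson 95% intervals of 26% to 74.0%, 58.1% to 94.5% and 56.7% to 87.5%. In control replicates 1 to 3 it was 67.3%, 35.7% and 73.9%, with intervals of 52.9% to 79.7%, 18.6% to 55.9% and 51.6% to 89.8%. All of these intervals cover counting error only, since the reads carry no molecular identifiers and several may stem from the same molecule. Control replicate 2 held the lowest share and cadmium replicate 1 the next, so the groups overlapped. Means were 68.4% ± 16.3 with cadmium, against 59.0% ± 20.4 in control cells (SD, n = 3 each, two-sided exact permutation p = 0.5). The share of novel_circ_0033004 was 11.1%, 0% and 0% with cadmium, against 17.3%, 25% and 13% in controls, or 3.70% ± 6.42 with cadmium against 18.5% ± 6.06 in control cells (SD, n = 3 each, exact permutation p = 0.1). The zeros, if they stand for no read, allow shares of up to 16.1% and 10.0% at the upper Clopper-Pearson bound. Among the 3 circles that open at exon 26, this share was 13.3%, 0% and 0% with cadmium, against 18.8%, 31.8% and 13% in controls, where cadmium replicate 1 and control replicate 3 overlapped (exact permutation p = 0.2). A test of unequal response among the circles of a host, run without the filter because only 1 SHPRH circle passes it, gave an edgeR adjusted p of 0.522 for SHPRH over 2033 host genes, of which it called 0.246%.

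**Figure D3:**
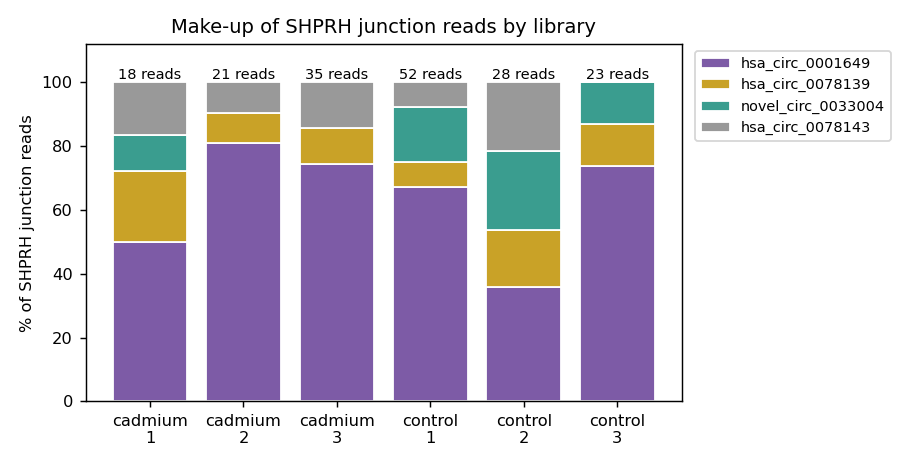
Share of each circle in the SHPRH junction reads of a library (vertical axis, %), for cadmium replicates 1 to 3 and control replicates 1 to 3, with the number of SHPRH reads above each bar. The share of hsa_circ_0001649 runs from 35.7% to 81.0%, and novel_circ_0033004 is missing in cadmium replicates 2 and 3.

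The annotation also gives, for each library, reads of a locus that do not cross the back-splice junction. The sources used here do not state how these non-junction reads were counted. For a circle nested in another they may include reads from the larger circle, in which exon 28 is joined to exon 29. The ratio used is the log2 of the doubled junction reads plus 0.5 over the non-junction reads plus 0.5, minus its median over 5837 circRNAs in the same library. That median was -0.57, -0.70 and -0.82 in cadmium replicates 1 to 3, against 0.19, -0.97 and 0.39 in control replicates 1 to 3. Control replicates 1 and 3 thus stood apart from the other 4 libraries in the balance of junction and non-junction reads.

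Junction reads outnumbered non-junction reads for hsa_circ_0001649 in 5 of 6 libraries. Its non-junction reads were 3, 5 and 8 with cadmium, against 7, 13 and 5 in controls, beside the 9 to 26 and 10 to 35 junction reads above. Control replicate 2 was the exception. The log2 ratio over the library median was 2.97, 3.35 and 3.45 with cadmium, against 3.04, 1.57 and 2.26 in controls. It lay above the median in all 6 libraries, and its mean was above that of 92.1% of 5837 circRNAs. The nested hsa_circ_0078139 had far fewer junction than non-junction reads, with 10, 10 and 11 non-junction reads with cadmium, against 34, 25 and 24 in controls. Its log2 ratio over the library median was 0.26, -0.53 and 0.39 with cadmium, against -2.21, -0.31 and -2.30 in controls. Thus 2 circles that share exons 26 to 28 lay at different places in this measure, 1 near the top and the other with a mean above 33.1% of circRNAs. The other 2 circles were not listed in every library and have no ratio. For novel_circ_0033004 there was 1 non-junction read in cadmium replicate 1, and 3, 3 and 2 in control replicates 1 to 3, below its junction reads in each. For hsa_circ_0078143 there were 3, 5 and 2 with cadmium, and 3 and 4 in control replicates 1 and 2.

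**Figure D4:**
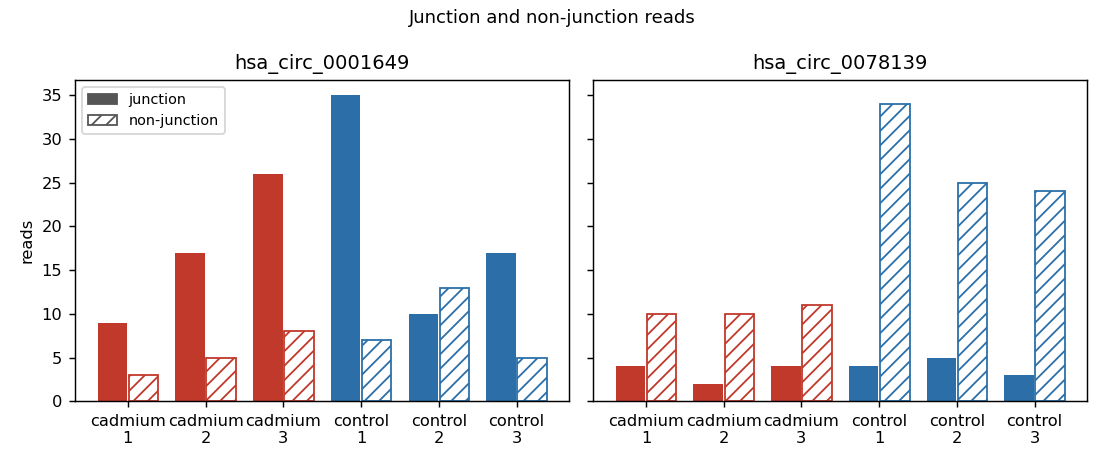
Junction reads (filled bars) and non-junction reads (hatched bars) of hsa_circ_0001649 (left) and hsa_circ_0078139 (right) in cadmium (red) and control (blue) libraries, in reads on a shared vertical axis. For hsa_circ_0078139 the non-junction reads number 10 to 11 with cadmium and 24 to 34 in controls, while its junction reads number 2 to 5 in all 6 libraries.

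Neither ratio differed with cadmium past the threshold. On the log2 scale, cadmium minus control was 0.96 for hsa_circ_0001649, with SE 0.50 (limma adjusted p = 0.616). For hsa_circ_0078139 it was 1.65, with SE 0.59 (limma unadjusted p = 0.0155, adjusted p = 0.600). Groups overlapped for both, and both had an exact permutation p of 0.2. The limma test called 0% of the 5837 circRNAs at an adjusted p under 0.05, 476 of them (8.15%) at an unadjusted p under 0.05, and a count test with edgeR called 8. On simulated data of this comparison limma recovered 10.1% of 4-fold changes, so its lack of calls carries little weight, and edgeR recovered 71.7%. The changed circRNAs were again abundant ones with a fixed spread. By edgeR the differences were 0.96 for hsa_circ_0001649 and 1.66 for hsa_circ_0078139 (edgeR adjusted p = 0.658 and 0.488). Before the library median was taken off, the log2 ratio of hsa_circ_0078139 was -0.30, -1.22 and -0.44 with cadmium, against -2.02, -1.28 and -1.91 in controls. These groups did not overlap, with cadmium higher, as for 1.22% of 5837 circRNAs, while the medians of the libraries were lower with cadmium by 0.57 on average. For hsa_circ_0001649 the difference before centring was 0.40, with SE 0.70 (limma adjusted p = 0.850), and its groups overlapped. Without control replicates 1 and 3 the centred difference of hsa_circ_0078139 was 0.37 and that of hsa_circ_0001649 was 1.70. Without control replicate 2 alone the difference was 2.28 for hsa_circ_0078139 and 0.59 for hsa_circ_0001649. The fit without control replicates 1 and 3 was chosen after seeing the data, and it assumes that the lone control varies like the cadmium libraries.

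**Figure D5:**
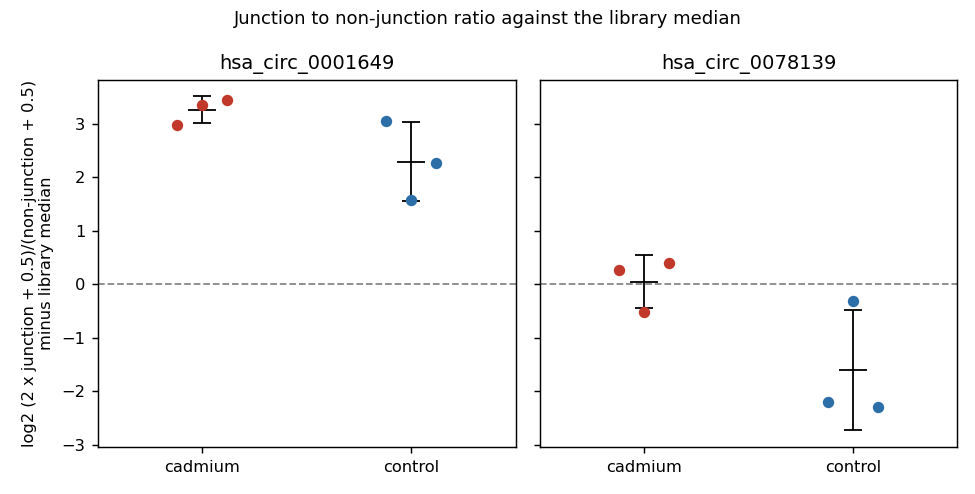
Log2 ratio of doubled junction to non-junction reads minus the library median (vertical axis), for hsa_circ_0001649 (left) and hsa_circ_0078139 (right), with cadmium (red) and in controls (blue). Points are libraries, bars give mean and SD of 3 libraries, and the dashed line is the library median. All 6 libraries lie above it for hsa_circ_0001649.

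The non-junction reads of hsa_circ_0078139 were tested by themselves after they had been seen. In CPM of all non-junction reads they stood at 20.3, 18.9 and 16.6 with cadmium, against 69.4, 39.7 and 75.6 in controls. All 3 cadmium libraries lay below all 3 controls, as for 9.01% of 5870 circRNAs tested, and control replicate 2 lay nearest to them. Means were 18.6 ± 1.87 CPM with cadmium, against 61.6 ± 19.2 CPM in control cells (SD, n = 3 each). The log2 fold change was -1.69, with SE 0.38, unadjusted p = 0.000453 and adjusted p = 0.197 (edgeR), in a fit that called 0.0341% of circRNAs and put 7.7% lower with cadmium at an unadjusted p under 0.05. Alternatives gave adjusted p from 0.000547 to 0.821. The lowest is that without control replicate 2, a fit that called 1218 circRNAs. Without control replicates 1 and 3 the log2 fold change was -1.09 (edgeR adjusted p = 0.677). The part of these control libraries in the result was not tested beyond these fits. For hsa_circ_0001649 the non-junction level was 6.10, 9.43 and 12.1 with cadmium, against 14.3, 20.7 and 15.8 in controls (log2 fold change -0.85, SE 0.52, edgeR adjusted p = 0.493). Its groups did not overlap either.

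Other genes that act on PCNA or at stalled forks (DNA damage tolerance) were looked at as a list of 38. Of these, 24 gave circRNAs and 23 were tested as host genes. The level of a host gene is the sum of junction reads over its circles, and is not a level of its mRNA or protein. None of the 23 passed the test in either direction (edgeR, 0 against 0.233% of all host genes). At such a share, 0 calls among 23 hosts say little about the list. At an unadjusted p under 0.05, 1 was higher and 0 lower, against 5.88% higher and 6.58% lower over all host genes. The median log2 fold change was -0.07, against 0.00 over 3008 host genes. The higher gene was RFWD3, a ubiquitin ligase gene of replication protein A, at 338 ± 73.4 CPM with cadmium, against 231 ± 53.6 CPM in control cells (SD, n = 3 each), a log2 difference of 0.56 (edgeR adjusted p = 0.381). HLTF, the paralogue of SHPRH, stood at 65.3 ± 21.3 CPM with cadmium, against 92.8 ± 20.5 CPM in control cells (SD, n = 3 each), a log2 difference of -0.46 (edgeR adjusted p = 0.672). Log2 fold changes of the 6 hosts with the highest levels did not pass the test either. They were 0.48 for POLD1, the catalytic subunit of DNA polymerase delta, and 0.05 for RAD18, whose ligase places the first ubiquitin on PCNA. For the translesion polymerase genes they were -0.33 for POLI, 0.11 for REV1 and -0.36 for REV3L, and for USP1, which removes ubiquitin from PCNA, -0.31. Groups did not overlap, with cadmium lower, for 2 of the 23, as for 10% of all host genes, and with cadmium higher for 0, as for 9.28%. These were UBE2V2, a partner of the enzyme that builds these chains, and PARPBP, whose protein binds PARP1. UBE2V2 stood at 117 ± 10.7 CPM with cadmium, against 167 ± 23.9 CPM in control cells (SD, n = 3 each), a log2 difference of -0.51 (edgeR adjusted p = 0.513). PARPBP stood at 60.0 ± 8.29 CPM with cadmium, against 83.9 ± 13.5 CPM in control cells (SD, n = 3 each), a log2 difference of -0.48 (edgeR adjusted p = 0.648). Both were named after their values were seen.

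Of 15 genes near SHPRH on chromosome 6, 4 gave circRNAs and 3 were tested, of which 0 passed, where 0.233% of all host genes did. Their log2 fold changes were -0.15 for UTRN, the gene of utrophin with 13 circles, 0.33 for PHACTR2 and -0.24 for EPM2A, the laforin gene (edgeR adjusted p from 0.714 to 0.888). The single STXBP5 circle was not tested. Of 16 genes of proteins that act on circRNA formation or decay, 5 gave circRNAs and 4 were tested, of which 0 passed against the same 0.233%, with a median log2 fold change of 0.38. QKI, whose protein promotes back-splicing, had circles that summed to 273 ± 34.0 CPM with cadmium, against 199.5 ± 49.5 CPM in control cells (SD, n = 3 each). The log2 difference was 0.43 (edgeR adjusted p = 0.507), and QKI mRNA or protein is not given by it. The groups of QKI did not overlap, with cadmium higher, as for 9.28% of 3008 host genes. Its circle hsa_circ_0005328 had 29, 29 and 33 reads with cadmium, against 35, 20 and 31 in controls, and novel_circ_0033257 had 12, 5 and 6 with cadmium, against 10, 0 and 8. Log2 fold changes were 0.09 for HNRNPM, 0.34 for MBNL1 and 0.41 for DHX9.

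The circRNAs most like hsa_circ_0001649 were found by Pearson's r of log2 CPM over the 6 libraries, given as a description, since all share these libraries and their depth. The highest was hsa_circ_0003962 of TYW1, a gene of tRNA modification (r = 0.990), with 2, 5 and 10 reads with cadmium, against 11, 2 and 5 in controls. Then came hsa_circ_0006016 of the corepressor gene RCOR1 (r = 0.973), novel_circ_0015292 of HNRNPUL1 (r = 0.968), hsa_circ_0007395 of KMT2E (r = 0.966) and hsa_circ_0007866, assigned to both HNRNPUL2 and a read-through gene (r = 0.966). All 5 shared its order of libraries in part, with cadmium replicate 1 below cadmium replicate 3 and control replicate 1 above control replicate 2 in reads. At the other end of the range was hsa_circ_0030914 of ARHGEF7 (r = -0.977), with 9, 4 and 3 reads with cadmium, against 3, 10 and 7 in controls. An r over 0.9 was reached by 43 circRNAs (0.696%).

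The cell type could not be checked by its markers, because 0 of 9 airway epithelial, 0 of 3 endothelial and 0 of 3 leukocyte marker genes gave a listed circRNA. Of 7 fibroblast and mesenchymal markers only BNC2 did, and the other 6 have none. The level of the BNC2 circle ran from 89.8 to 106 CPM with cadmium and from 161 to 232 CPM in controls (log2 fold change -0.99, edgeR adjusted p = 0.204). Its groups did not overlap, with cadmium lower, as for 10% of 3008 host genes. It moves in the same direction as novel_circ_0033004 and the non-junction reads, and its part in those results was not tested.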

How the data were processed

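Counts of reads over each junction were deposited for every library, per the file headers, and hold no fractions. The deposited TPM carries no length term, being each count scaled by its library's sum, and served in 1 alternative. The authors' deposited comparison gives group means of normalised reads (a signal without replicates), log2 fold changes and p-values, and is quoted only as theirs. No circRNA caller is named in the sources used here. The submitters' processing notes name Bowtie2 2.2.8, Bowtie, DESeq 1.10.1 and hg19, yet 98.0% of exonic starts and 98.1% of ends lie on GENCODE 29 exon bounds of GRCh38, so that build is used for all positions, with 1 as the first base.

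Counts were tested with edgeR 4.0.16 (quasi-likelihood, R 4.3.3) with TMM factors, robust fitting, a minimum count of 5, a minimum total of 15 and Benjamini-Hochberg adjustment at 0.05 over all features tested. Host sums used circRNAs with 1 host. SE of a log2 fold change is its size over the square root of F. Ratios were tested with limma 3.58.1 for circRNAs with 10 or more reads (doubled junction plus non-junction) in every library, and single values by two-sided exact permutation. Circle usage was tested with diffSpliceDGE of edgeR on unfiltered counts, in place of the filtered counts first designed, which left 1 SHPRH circle. The test of non-junction reads was added after seeing the data. Likeness used log2 CPM with a prior count of 2. The fits were tested on simulated data. Alternatives were other size factors, no filter, DESeq2 1.42.0, limma on log2(TPM + 1), other offsets and minimums, a replicate block and leaving out libraries. The members and the lists of damage tolerance, neighbouring, circRNA formation and marker genes were chosen with earlier results of these data known. No library looked like a copy of another in its group (chi-square over degrees of freedom 1.59 to 2.49 for each pair).

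The named circRNAs are all those of SHPRH, the 5 most and 2 least like hsa_circ_0001649 (1 of the 2 is not reported here), those of QKI, and the hosts with the highest levels in each list (6 for damage tolerance, 4 for the others) with any that pass. HLTF, RFWD3, UBE2V2 and PARPBP were named after their values were seen.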

Additional observations from a re-analysis of the deposited data

How the results depend on the processing

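Under the alternatives run, no SHPRH circle and not their sum passed the threshold in junction reads, and neither of the 2 circles with a ratio did in the ratio. Shares were compared only by exact permutation, which cannot go below 0.1, so their side of the threshold says nothing. The sign was less firm. Leaving out each library in turn, the log2 fold change ran from -0.28 to 0.43 for hsa_circ_0001649, from -0.42 to -0.01 for the sum, and, without the filter on low counts, from -0.22 to 0.30 for hsa_circ_0078139, from -0.36 to 1.11 for hsa_circ_0078143 and from -5.60 to -2.22 for novel_circ_0033004. The value of -5.60 leaves out cadmium replicate 1, so that both cadmium libraries are at 0 and its size depends on the prior count. Without control replicates 1 and 3 it was -0.89 for hsa_circ_0078143, and the median of the damage tolerance list was -0.40, against -0.07 with all libraries. The cause was not tested. Over the same 6 fits the difference in share of hsa_circ_0001649 ran from -2.20 to 18.6 percentage points, the ratio difference from 0.59 to 1.34 for hsa_circ_0001649 and from 1.30 to 2.28 for hsa_circ_0078139, and the non-junction fold change of hsa_circ_0078139 from -1.95, its only call, to -1.53. A minimum of 20 reads leaves no ratio for hsa_circ_0078139.

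Same-numbered libraries showed little tendency to deviate together (r = 0.000205, 0.0216 and 0.0517). Such values cannot tell whether they were grown or prepared together, and the main fits did not pair them. With the replicate block the log2 fold change was 0.07 for hsa_circ_0001649 and -0.17 for the sum. Counts of calls moved more than those of members. For junction reads they ran from 0 to 13 circRNAs, against 5 with all libraries, and from 3 to 13 host genes, against 7, with 11 by DESeq2 and 4 by limma. For non-junction reads they ran from 0 to 1218, against 2, with 36 by DESeq2 and 5 with the block. For circle usage they ran from 1 to 11 hosts, against 5, with 0 by Simes' test and 1 with the block. Without control replicates 1 and 3, 3 circRNAs and 3 host genes were called. Depth limits 3 of the 4 circles, which had 20 to 22 reads in all.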
